A study of Mus musculus with 20 samples.

Results

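The comparison described here is that of dnFGFR mice with control mice over both housing conditions, in the preoptic area (POA) of 20 male mice, which are all 20 samples of the series. The POA is the forebrain region that holds most neurons making gonadotropin-releasing hormone (GnRH), the peptide that drives the pituitary to release LH and FSH. RNA of whole POA tissue was measured by bulk RNA-Seq in 4 groups of 5 mice, SS and OS controls and SS and OS dnFGFR mice. SS mice lived with a male partner and OS mice with a female partner with which they bred freely, from weaning and pairing on postnatal day (PND) 20 to tissue collection on PND320. The dnFGFR mice were homozygous for a transgene that encodes a truncated FGFR1 without its kinase domain and that a rat GnRH promoter targets to GnRH neurons. Control mice were of the matching background and descended from siblings heterozygous for the transgene. The members were chosen by genotype alone: 10 dnFGFR mice (5 SS, 5 OS) were set against 10 control mice (5 SS, 5 OS), with housing as an additive term.

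Fibroblast growth factors (FGFs) act through receptor tyrosine kinases that dimerise when ligand binds. A receptor that lacks its kinase domain can still bind ligand and pair with an intact receptor, but the pair cannot signal, so the protein acts as a dominant negative. FGF signalling is known to be needed for GnRH neurons to form and to be kept. GnRH neurons are few and scattered, so most RNA of a POA sample comes from other neurons, glia and vessels that the transgene's promoter is not meant to reach.

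Counted reads per mouse ran from 32353578 to 39871353 in control mice and from 33055203 to 37778957 in dnFGFR mice, so that 1 CPM, the usual unit of counts scaled to library size, stood for 32 to 40 reads. dnFGFR OS replicate 5 stood apart on the first principal component of log2 CPM, at 69.3 where the other 19 mice lay between -29.8 and 16.0, and values without it (19 mice) are given beside those of all 20. Genotype was confounded with the date of sacrifice: all control mice were collected in June or July and all dnFGFR mice in May, except dnFGFR SS replicate 4 in November. A difference between genotypes therefore cannot be told apart from one between collection dates, here and in every result that follows. Per the study's methods, dnFGFR breeding pairs were homozygous and control mice came from matings of heterozygous siblings. Parentage was thus confounded with genotype as well, and its part in the results was not tested. The 20 tested of 23 listed transcription factors of the preoptic and hypothalamic region summed to 621 to 780 CPM in every mouse. The 2 tested of 7 listed markers of pituitary cells summed to at most 1.98 CPM. Genes that failed the filter on low counts are not in these sums.

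Over both housings, 232 of 17445 tested genes, or 1.33%, differed between dnFGFR and control mice by edgeR's quasi-likelihood test at an adjusted p under 0.1 (Benjamini-Hochberg). Of these, 95 were higher in dnFGFR mice (0.545% of the genes tested) and 137 were lower (0.785%). Most differences were small: the median absolute log2 fold change was 0.42, 136 of the 232 genes changed by less than 0.5, and 40 by at least 1, of which 15 were higher and 25 lower. Without dnFGFR OS replicate 5, 336 of 17558 genes were called (1.91%), 142 of them higher and 194 lower, and 223 of the 232 genes were called again. All 232 kept their direction. The split between higher and lower calls moved with a joint correction for GC content and gene length: after the dependence of each library on both had been taken out, 397 genes were called and 54.9% of them were higher, against 41.0% as first fitted, and 209 of the 232 remained called in the same direction. In 14 of the 17445 genes (0.0803%) the 10 dnFGFR values did not overlap the 10 control values, 6 of them higher and 8 lower in dnFGFR mice, and all 14 were among the 232.

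**Figure D1:**
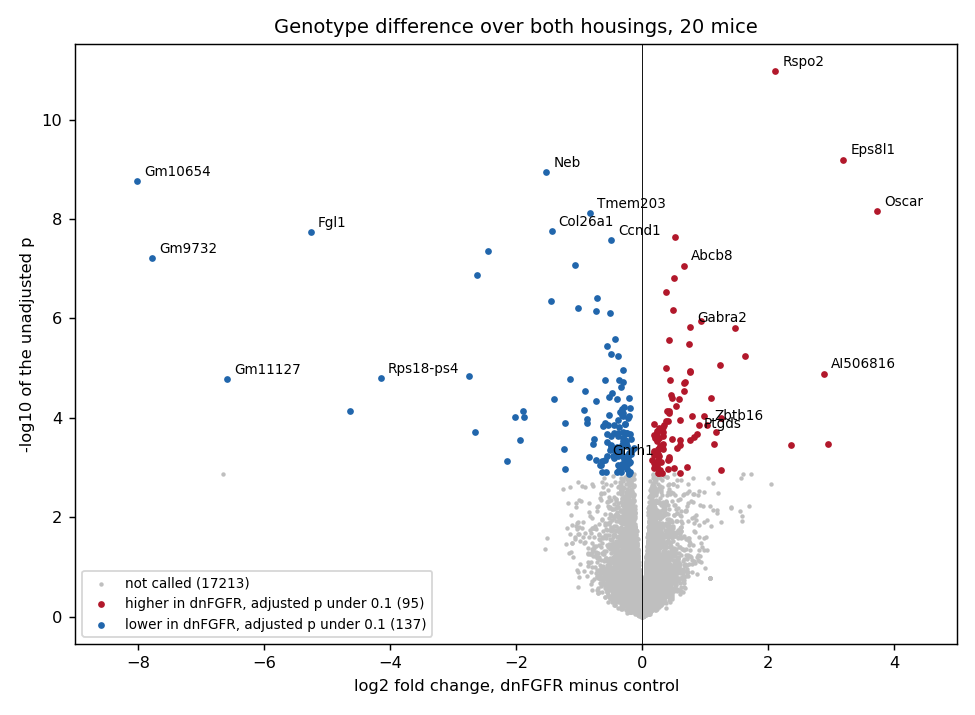
Each point is 1 of 17445 genes, with its log2 fold change (dnFGFR minus control) on the x axis and -log10 of its unadjusted p on the y axis; red and blue points are the 95 higher and 137 lower genes. Rspo2 has the smallest p at a log2 fold change of 2.10, and Gm10654 and Gm9732, which had at most 1 read in all dnFGFR mice, lie at the far left.

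Gnrh1, which encodes the GnRH precursor, was lower in dnFGFR mice. It lay between 1.40 and 2.53 CPM in control mice (median 1.97) and between 0.949 and 1.85 CPM in dnFGFR mice (median 1.31), which is 32 to 93 reads per mouse. Each genotype's range covered part of the other's. The log2 fold change was -0.58 (SE 0.15, adjusted p = 0.0657 by edgeR), and -0.55 in 19 mice (adjusted p = 0.0855). It was -0.67 in SS-housed mice and -0.50 in OS-housed mice, each fitted alone. The call stood close to the threshold: leaving out each mouse in turn gave adjusted p-values from 0.0411 to 0.133, and the call was lost in 9 of 20 cases, namely without control SS replicate 3, 4 or 5, control OS replicate 2 or 4, dnFGFR SS replicate 2, 3 or 4, or dnFGFR OS replicate 3. At the nearest dates of sacrifice, described further on, it was -0.31 and was not called. In bulk tissue, fewer GnRH neurons and less RNA per neuron cannot be told apart. Of the 14 tested genes of the GnRH and kisspeptin system, Gnrh1 alone passed the test. The kisspeptin receptor Kiss1r had a log2 fold change of -0.07 (adjusted p = 0.85) and the prokineticin receptor Prokr2 one of 0.08 (adjusted p = 0.89).

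The receptors that the truncated FGFR1 can pair with did not pass the test. Fgfr1 lay between 86.6 and 99.3 CPM in control mice and between 81.6 and 102 CPM in dnFGFR mice, with a log2 fold change of -0.02 ± 0.04 (SE, with adjusted p = 0.94). Whether the deposited counts of Fgfr1 include reads of the transgene is not given in the sources used here, so its level checks nothing about the labels. Fgfr2 had a log2 fold change of -0.20 ± 0.09 (SE, with adjusted p = 0.40) and Fgfr3 one of 0.06 (SE 0.07, adjusted p = 0.83). Among 21 tested FGF ligands and receptors none was called, the smallest p being that of the decoy-like receptor Fgfrl1 (log2 fold change -0.24, SE 0.07, adjusted p = 0.103), and the list's median was 0.06 beside -0.00 over all genes tested.

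Of 18 genes that FGF and ERK signalling are known to induce, 1 was called. That gene, Ccnd1, encodes cyclin D1, which drives cells into the DNA synthesis phase. Ccnd1 lay between 31.8 and 47.0 CPM in control mice (median 41.1) and between 25.9 and 32.7 CPM in dnFGFR mice (median 29.1), so that the ranges met only at control OS replicate 4. Its log2 fold change was -0.50 (SE 0.06, adjusted p = 4.67e-05), and -0.57 and -0.42 in SS- and OS-housed mice. The other 17 did not pass the test. Among the feedback inhibitors of the pathway the log2 fold change was -0.09 for Spry2, -0.00 for Spry4, -0.04 for Dusp6 and -0.23 for Il17rd (adjusted p = 0.38), and among the ETS transcription factors it was 0.18 for Etv5 (adjusted p = 0.23). Of the 18 genes, 15 had a log2 fold change below 0 and 3 above 0, and the list's median was -0.03.

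The gene with the smallest p was Rspo2, a secreted R-spondin that strengthens WNT signalling. It lay between 1.64 and 7.93 CPM in the 10 control mice (median 5.16) and between 18.4 and 25.4 CPM in the 10 dnFGFR mice (median 22.2). The genotypes did not overlap, and the 2 housings of a genotype had nearly equal means: 5.02 ± 2.32 CPM in control SS, 5.32 ± 1.40 in control OS, 22.5 ± 3.02 in dnFGFR SS and 22.0 ± 0.959 in dnFGFR OS mice (SD, n = 5 each). Its log2 fold change was 2.10 (SE 0.17, adjusted p = 1.85e-07 by edgeR, 3.59e-07 in 19 mice).

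Several other genes of small p were higher in dnFGFR mice by moderate amounts at levels that many reads support. Gabra2, the alpha2 subunit of the GABA-A receptor, lay between 94.5 and 186 CPM in control mice (median 125) and between 167 and 280 CPM in dnFGFR mice (median 211), with overlap at control OS replicate 3, and its log2 fold change was 0.75 (SE 0.12, adjusted p = 0.00104). The control mice were divided. Control SS replicates 2 and 3 and control OS replicates 1, 2 and 4 lay between 94.5 and 105 CPM. Control SS replicates 1, 4 and 5 and control OS replicate 5 lay at 146 to 147 CPM. No mouse lay near the control median. Abcb8, an ATP-binding cassette transporter of the mitochondrial inner membrane, had a log2 fold change of 0.65 ± 0.08 (SE, with adjusted p = 0.000109). Zkscan1, a zinc finger protein gene, rose by 0.50 (SE 0.07), and Ints7, a subunit of the Integrator complex that processes small nuclear RNAs, by 0.49 (SE 0.07). In Ints7, 9 control mice lay between 29.1 and 39.9 CPM and control OS replicate 5 at 46.9 CPM, within the dnFGFR range of 42.6 to 55.8 CPM. Galnt11, which starts O-linked glycan chains, rose by 0.37 (SE 0.05) from a median of 37.5 to one of 49.6 CPM. The noncoding 4933404O12Rik and the protein-coding 4930447C04Rik were higher without overlap, by 0.52 (SE 0.06) and 0.42 (SE 0.07).

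Among the genes lower in dnFGFR mice, Neb had the smallest p. It encodes nebulin, the giant protein of muscle thin filaments, and was at a low level in this tissue. Control mice lay between 3.22 and 6.68 CPM (median 5.03) and dnFGFR mice between 1.16 and 2.84 CPM (median 1.60), with no overlap and a log2 fold change of -1.53 ± 0.16 (SE, with adjusted p = 6.64e-06). Hpgd, which encodes the dehydrogenase that inactivates prostaglandins, fell from a median of 4.58 to one of 1.48 CPM (log2 fold change -1.45, SE 0.21, adjusted p = 0.000415), with overlap at control SS replicate 2 (1.76 CPM). Col26a1, a collagen chain, fell from a median of 4.46 to one of 1.73 CPM (-1.44, SE 0.17, adjusted p = 4.03e-05). Fut10, of the fucosyltransferase family, fell from a median of 8.50 to one of 4.21 CPM with no overlap (-1.06, SE 0.14, adjusted p = 0.000109). Tmem203, a membrane protein of the endoplasmic reticulum, fell by 0.84 on the log2 scale (SE 0.09), and AU022252 by 0.71 (SE 0.10). Asic3, a proton-gated sodium channel subunit, was at or below 1.53 CPM in every mouse, did not overlap between genotypes and had a log2 fold change of -2.62 (SE 0.35).

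**Figure D2:**
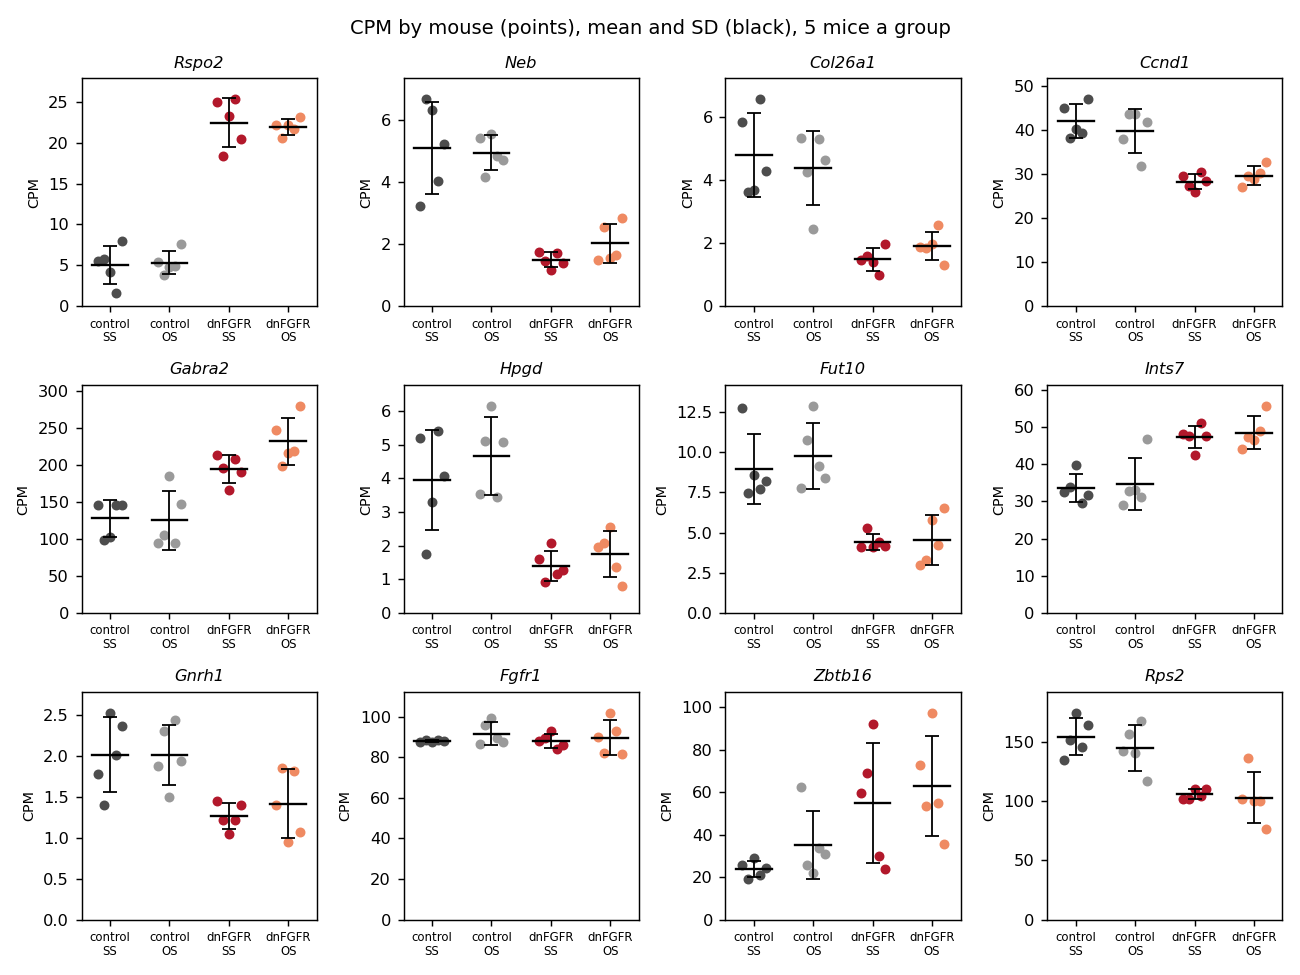
CPM of 12 genes (y axes from 0) in the 4 groups, with a point for each mouse and black bars for the mean and SD of 5 mice. Rspo2, Neb and Fut10 show no overlap between genotypes, Gnrh1 and Zbtb16 show partial overlap, and Fgfr1 lies between 81.6 and 102 CPM in all groups.

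A few transcripts were nearly absent from one genotype. Gm9732, a long noncoding RNA, had no read in any dnFGFR mouse and 273 reads over the 10 control mice, where it lay between 0.312 and 1.74 CPM. Set against a floor of 3 reads over the dnFGFR group, it was at least 89.7-fold lower. Gm10654 had 598 reads in control mice and 1 in dnFGFR mice, in dnFGFR OS replicate 5, a ratio of 589 (95% exact counting interval 105 to 23320). It was also close to absent from 2 control mice, at 0.0278 CPM in control SS replicate 3 and 0.183 CPM in control OS replicate 4. Fgl1, a fibrinogen-like secreted protein, had 125 reads in control and 2 in dnFGFR mice, a ratio of 61.6 (interval 16.7 to 514). These intervals cover counting error only. Prkag2os1, which lies within the span of Prkag2, fell from a median of 0.730 to one of 0.127 CPM (log2 fold change -2.45, SE 0.31). The strand setting of the counting is not given in the sources used here, so its reads and those of Prkag2 cannot be told apart.

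Called genes were not spread evenly over the genome. Of the 232, 231 had a position in the RefSeq annotation of GRCm38.p6, the build of the counts. Chromosome 8 had the highest share of tested genes called, 31 of 902 (3.44%, over a span from 18846279 to 105348062), followed by chromosome 5 with 28 of 1061 (2.64%), while the other chromosomes reached at most 1.63% and X had 0.487%. Another called gene began within 1 Mb of 130 called genes (56.3%), whereas 22.3% of all tested genes had a called gene that near. Runs of at least 4 called genes, each beginning within 2 Mb of the next, were then listed, a rule set after the values were seen and so given with no test. There were 12 such runs with 70 called genes among 482 tested (14.5%), and 68 of the 70 were also called in 19 mice. Outside the runs 161 genes were called (0.954%).

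On chromosome 5 between 21737160 and 25705797, 11 of 50 tested genes were called, 8 higher and 3 lower. They include Galnt11, Abcb8, Asic3, Prkag2os1, Gm9057, AI506816, the DNA repair gene Xrcc2, and Psmc2, an ATPase subunit of the proteasome. Abcb8 and Asic3 each overlap Cdk5 at their ends, so that some reads may be shared. In this run 2 control mice, SS replicate 3 and OS replicate 4, lay nearer the dnFGFR mean than the control mean in log2 CPM for 6 of the 11 genes each. The noncoding AI506816 showed it most plainly: these mice were at 4.53 and 4.39 CPM, the other 8 control mice between 0.0852 and 0.577 CPM, and the dnFGFR mice between 7.18 and 8.97 CPM. For Abcb8 the same mice were at 82.9 and 74.5 CPM, the other control mice between 51.3 and 56.1 CPM, and the dnFGFR mice between 70.2 and 106 CPM.

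On chromosome 7 between 3609813 and 4981041, 6 of 54 tested genes were called. Oscar, the osteoclast-associated receptor, Tmc4, a transmembrane channel-like protein, Eps8l1, related to an actin-binding signalling adaptor, and the noncoding D630041G03Rik were higher, while Rdh13, a retinol dehydrogenase, and Sbk3, a kinase-like gene, were lower. Eps8l1 lay between 1.21 and 2.62 CPM in control mice and between 8.50 and 27.2 CPM in 9 dnFGFR mice, while dnFGFR SS replicate 2 had 1.90 CPM. Its log2 fold change over all mice was 3.18 (SE 0.31, adjusted p = 5.60e-06). Oscar rose from a median of 0.176 to one of 2.42 CPM (3.72, SE 0.42, adjusted p = 2.2e-05), with dnFGFR SS replicate 2 at 0.163 CPM. That mouse lay nearer the control mean for all 6 genes of the run, dnFGFR OS replicate 2 for 2 of them, dnFGFR SS replicates 1 and 4 for 1 each, and no other mouse was displaced at any of the 6.

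Eps8l1, D630041G03Rik and Rdh13 overlap in the annotation, so part of their reads could be counted for one another, although Rdh13 moved in the opposite direction. The annotated starts of the first 2 of these face each other from opposite strands, and their promoter windows (RefSeq, GRCm38.p6, 300 bases each, printed 5′ to 3′ in the direction of transcription) are shown because the transcripts rose and failed to rise in nearly the same mice. Capitals mark matches to CCAAT on either strand. The window of Eps8l1 (chr7:4460447-4460746, plus strand) holds 1 match, that of D630041G03Rik (chr7:4470835-4471134, minus strand) holds none, and neither holds TATAAA. Of 32851 windows of mouse genes, 37.4% hold CCAAT and 13.6% hold TATAAA on either strand.
Eps8l1: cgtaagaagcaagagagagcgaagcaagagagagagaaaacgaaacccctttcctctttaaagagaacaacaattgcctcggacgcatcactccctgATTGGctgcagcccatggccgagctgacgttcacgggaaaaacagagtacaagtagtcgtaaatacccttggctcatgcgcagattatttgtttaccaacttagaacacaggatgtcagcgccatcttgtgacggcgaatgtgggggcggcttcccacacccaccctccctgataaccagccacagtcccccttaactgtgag
D630041G03Rik: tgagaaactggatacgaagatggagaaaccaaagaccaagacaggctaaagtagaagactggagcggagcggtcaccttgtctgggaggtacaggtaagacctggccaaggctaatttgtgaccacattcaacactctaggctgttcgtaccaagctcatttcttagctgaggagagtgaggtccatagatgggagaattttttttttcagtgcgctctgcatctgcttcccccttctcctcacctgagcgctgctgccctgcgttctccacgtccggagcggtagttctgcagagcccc

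On chromosome 15 between 41447482 and 44235912, 4 of 7 tested genes were called, and all 4 were higher: Rspo2, Oxr1, which protects cells from oxidative damage, the lysosomal membrane protein gene Tmem74, and Trhr, the receptor of thyrotropin-releasing hormone. Trhr lay between 5.67 and 9.77 CPM in control mice and between 8.17 and 14.9 CPM in dnFGFR mice (log2 fold change 0.59, adjusted p = 0.0121), and Tmem74 had a log2 fold change of 0.75 (adjusted p = 0.00553). Oxr1 rose by 0.24 from a mean of 150 CPM (adjusted p = 0.0313). The difference in Rspo2 was the largest of the 4 on the log2 scale.

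Chromosome 8 held 3 runs. Between 27041924 and 27399730, 4 of 9 tested genes were called, among them Chrnb3, a nicotinic acetylcholine receptor subunit, which was higher (log2 fold change 1.17, adjusted p = 0.0311). Between 31089527 and 33698162, 5 of 13 were called, with Fut10, Rnf122 and Dusp26 lower and Gm3985 and Gsr, the glutathione reductase gene, higher. Between 69822565 and 72009668, 6 of 93 were called and all 6 were lower, among them Gm10654 and Ncan, a chondroitin sulphate proteoglycan of the brain matrix (log2 fold change -0.32, adjusted p = 0.0200). On chromosome 2 between 24949777 and 26140506, 7 of 51 were called, among them Tmem203, which was lower, and Ptgds, the prostaglandin D synthase gene, which was higher. Ptgds lay between 91.6 and 320 CPM in control mice and between 160 and 536 CPM in dnFGFR mice (log2 fold change 0.86, adjusted p = 0.0315). Control SS replicate 4 lay nearer the dnFGFR mean for 5 of these 7 genes and control OS replicate 4 for 4, and dnFGFR OS replicate 5 nearer the control mean for 4.

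On chromosome 9 between 44123768 and 49408177, 7 of 69 tested genes were called, with Zbtb16 higher and 6 lower, among them Drd2, the sodium channel subunit gene Scn4b (log2 fold change -0.50, adjusted p = 0.00296) and Fxyd2, a regulator of the sodium pump (-0.88, adjusted p = 0.0218). Here dnFGFR SS replicate 5 lay nearer the control mean for 5 of the 7 genes and dnFGFR SS replicate 2 for 4. Drd2 is also in the list of striatal markers below, and Zbtb16 in that of glucocorticoid-induced genes. The same mice had the highest values of all dnFGFR mice for the striatal markers Rgs9 and Syndig1l, which lie outside this run. They had 424 and 484 CPM of Rgs9, and 172 and 170 CPM of Syndig1l. The part of tissue content in this run was not tested. In the remaining runs a mouse was displaced at most of the genes in 4 cases: control OS replicate 4 at 4 of 6 genes of the third run on chromosome 8, control OS replicate 3 at 4 of 7 of the second on chromosome 5, and, on chromosome 1, dnFGFR SS replicate 5 at 3 of 4 of the first and control OS replicate 3 at 3 of 4 of the other.

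**Figure D3:**
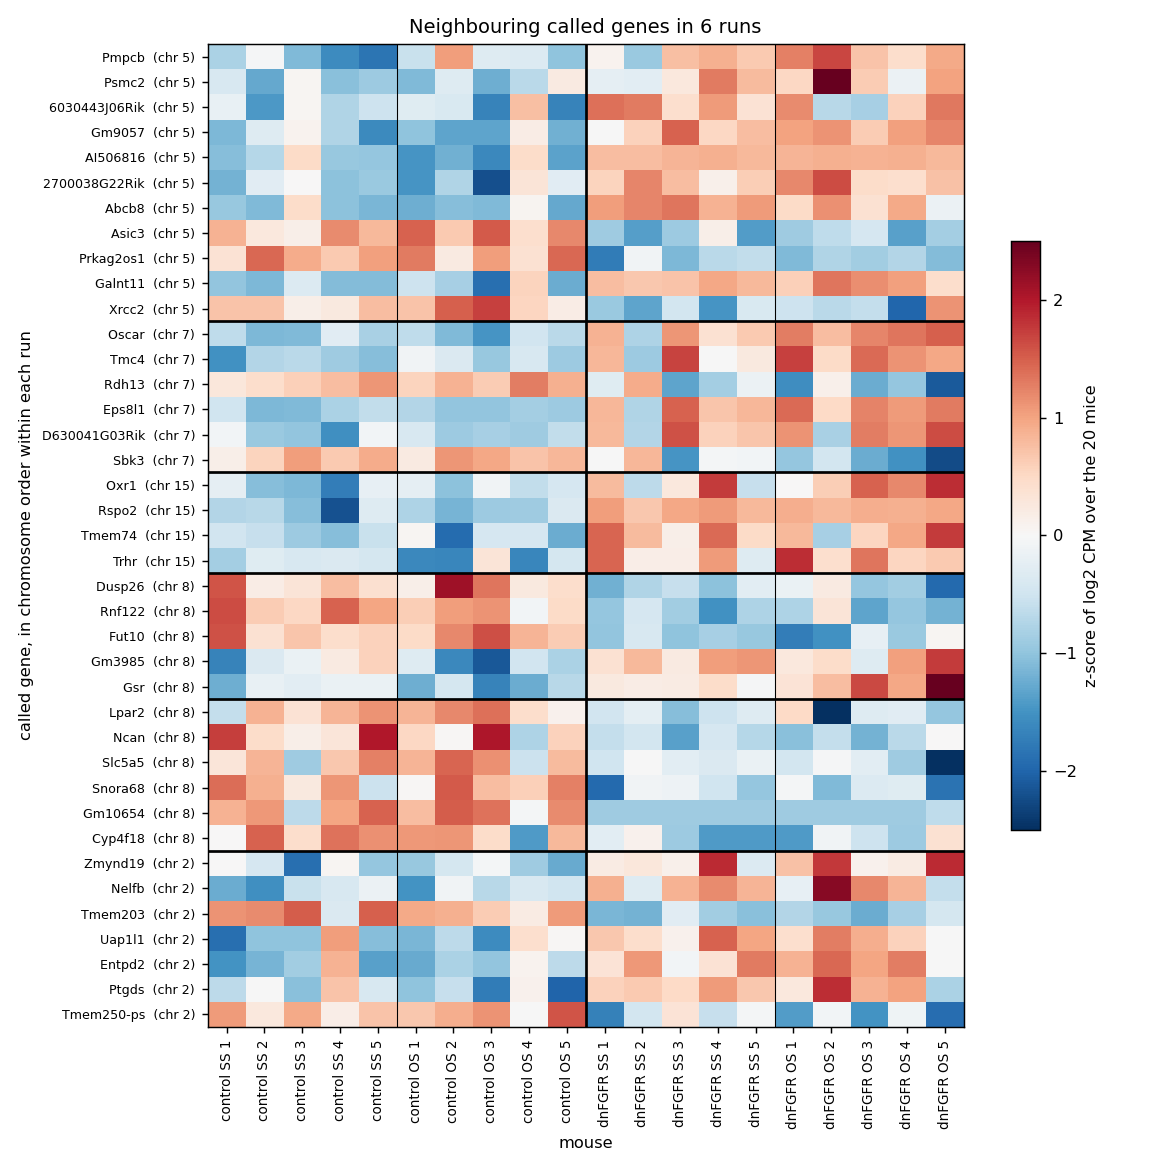
Rows are the called genes of 6 runs in chromosome order, columns the 20 mice, and colour the z-score of log2 CPM over the mice (red high, blue low). In the chromosome 7 run dnFGFR SS replicate 2 has the colours of the control mice in all 6 genes, and in the chromosome 5 run control SS replicate 3 and control OS replicate 4 depart from the other control mice at AI506816 and Abcb8.

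Some called genes were divided within the control mice rather than between the genotypes. Gm11127, a gene of the major histocompatibility region on chromosome 17 with near-identical relatives there, was at 2.23, 5.25 and 3.25 CPM in control SS replicates 1, 3 and 4 and at 3.35 and 8.21 CPM in control OS replicates 4 and 5. The other 5 control mice had at most 0.165 CPM and the dnFGFR mice at most 0.153 CPM, and the fitted log2 fold change was -6.59 (SE 1.21, adjusted p = 0.00672). The ribosomal pseudogene Rps18-ps4, chosen after its values were seen, was high in the same 5 control mice, at 37.5 to 85.1 CPM, and at 0.580 to 5.32 CPM in the other 15 mice. Its parent gene Rps18 ran the other way, with 4.61 and 6.53 CPM where the pseudogene was highest. Control SS replicates 1 and 4 and control OS replicate 4 were intermediate. They had 37.5 to 44.6 CPM of the pseudogene and 49.7 to 54.9 CPM of Rps18. The sum of the pair lay between 82.0 and 117 CPM in control mice and between 68.7 and 134 CPM in dnFGFR mice, ranges that overlap. Reads of such copies can be split in counting, so that the values of single copies are uncertain. Why the split differed between mice was not tested.

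In addition, 30 gene lists were described by their called members and medians, with no test of a list, since the lists were drawn up with earlier results of these data known. They held 645 tested genes, of which 17 were called (2.64%, against 1.33% of all tested genes), 6 higher and 11 lower, in 11 of the 30 lists. Of all tested genes, 49.8% had a log2 fold change above 0.

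Of 17 glucocorticoid-induced genes, 17 had a log2 fold change above 0, with a median of 0.33, and 2 were called higher. Zbtb16, a zinc finger transcription factor, lay between 19.3 and 62.4 CPM in control mice (median 25.7) and between 23.9 and 97.5 CPM in dnFGFR mice (median 57.3), with a log2 fold change of 1.03 ± 0.23 (SE, with adjusted p = 0.0249). Pdk4, a kinase that restrains the entry of pyruvate into mitochondrial oxidation, had one of 0.70 (SE 0.19, adjusted p = 0.0798), and that call was lost in 11 of the 20 cases with 1 mouse left out. Mean Pdk4 was 16.3 CPM in control SS, 30.7 in control OS, 33.9 in dnFGFR SS and 39.4 in dnFGFR OS mice. Control OS mice thus lay nearer dnFGFR SS than control SS mice. Without dnFGFR OS replicate 5, 7 of the 17 were called, all higher, with a median of 0.41. Zbtb16 varied within each genotype: the 6 dnFGFR mice collected on 1 and 13 May had 53.6 to 97.5 CPM, those of 21 and 28 May 55.1, 35.6 and 23.9 CPM, and the mouse of November 29.9 CPM, while control OS replicate 1 had 62.4 CPM and the other 9 control mice 19.3 to 33.8 CPM. In the 3 dnFGFR mice of late May against the 5 control mice of 12 and 19 June, the dates nearest each other, the list's median was -0.16, but 1 of those 3 mice was dnFGFR OS replicate 5, and without it the median was 0.11 with 0 of 17 genes called. The part of the date in this result was not tested.

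Among genes of sex steroid metabolism, 1 of 21 was called: Cyp7b1, an oxysterol and neurosteroid hydroxylase, rose from a median of 10.6 to one of 13.3 CPM (log2 fold change 0.33, SE 0.07, adjusted p = 0.0260). Neither the neuropeptides (0 of 24 called), the preoptic and hypothalamic transcription factors (0 of 20), the immediate early genes (0 of 22), the circadian clock genes (0 of 20) nor the interferon-stimulated genes (0 of 20) had a called member. In 19 mice the neuropeptide Adcyap1 (adjusted p = 0.0308) and the clock gene Cry1 (adjusted p = 0.0987) were called higher. The members of smallest p over 20 mice were Grp (0.59, adjusted p = 0.18), Zic1 (-0.28, adjusted p = 0.18), Egr2 (-0.68, adjusted p = 0.18), Cry1 (0.19, adjusted p = 0.11) and Isg15 (-0.54, adjusted p = 0.19). Of the 24 genes of GABA and glycine transmission, Gabra2 was called (in 19 mice also Gabra5, adjusted p = 0.0871), and of the 22 glutamate receptor subunits none was (Grm4 -0.16, adjusted p = 0.15), nor of the 17 genes of MHC class I presentation (H2-T23 0.42, adjusted p = 0.14, and called in 19 mice at 0.0312).

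The cytosolic ribosomal proteins, 82 tested genes with a median of -0.04 (0.00 in 19 mice), had 2 called members, both lower. Over 20 mice 64 of the 82 had a log2 fold change below 0 and 18 above 0. Rps2 fell from a median of 149 to one of 102 CPM (log2 fold change -0.52, SE 0.08, adjusted p = 0.000578), and Rpsa, also known as the laminin receptor, from 275 to 126 CPM (-0.92, SE 0.19, adjusted p = 0.0180). Both have many processed pseudogenes, so that their counts are uncertain in the same way as those of Rps18. Of 43 collagen chains Col26a1 and Col23a1 were lower (Col23a1 -0.38, adjusted p = 0.0528) and 28 had a log2 fold change below 0. Of 38 proteasome subunits Psmc2 was higher (0.18, adjusted p = 0.0705, lost in 8 of 20 cases with 1 mouse left out). A log2 fold change above 0 was found in 33 of the 38 and one below 0 in 5. None of 36 subunits of mitochondrial complex I (Ndufs1 0.08, adjusted p = 0.37) and none of 81 potassium channel subunits (Kcnj3 0.31, adjusted p = 0.12) was called, although Kcnn2 was in 19 mice (adjusted p = 0.0787).

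Of 12 markers of striatal medium spiny neurons, a cell type of the neighbouring striatum, 12 had a log2 fold change below 0 (median -0.20) and 12 an unadjusted p under 0.05, which 11.2% of all tested genes had. Rgs9 (-0.27, SE 0.06, adjusted p = 0.0245), the dopamine receptor Drd2 (-0.27, SE 0.06, adjusted p = 0.0314) and Syndig1l (-0.31, SE 0.08, adjusted p = 0.0581, lost in 8 of 20 cases with 1 mouse left out) were called lower, and in 19 mice Adora2a also (adjusted p = 0.0684). The list summed to 3852 to 4967 CPM in control mice and to 2582 to 4407 CPM in dnFGFR mice. Of 10 markers of cortical projection neurons, 10 had a log2 fold change above 0 (median 0.50) and none was called (Neurod1 0.71, adjusted p = 0.16), and their sum lay between 264 and 746 CPM in control and between 430 and 982 CPM in dnFGFR mice. The medians of both lists kept their sign in 19 mice and at the nearest dates. Their part in the results above was not tested.

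Of 12 markers of endothelial cells and pericytes, Vtn (-0.26, SE 0.06, adjusted p = 0.0413) and the tight junction gene Cldn5 (-0.40, SE 0.11, adjusted p = 0.0948, lost in 14 of 20 cases with 1 mouse left out) were lower and 11 had values below 0. In 19 mice 5 of the 12 were called lower. Of 12 markers of oligodendrocytes 11 had values below 0 (median -0.15) with none called (Mag -0.23, adjusted p = 0.19) but Opalin called lower in 19 mice (adjusted p = 0.0634), and their sum was 6685 to 9193 CPM in control and 5246 to 8324 CPM in dnFGFR mice. Of 12 astrocyte markers the gap junction gene Gjb6 was higher (0.41, SE 0.10, adjusted p = 0.0657, lost in 10 of 20 cases with 1 mouse left out) and the median was -0.00. No marker was called among oligodendrocyte precursors (Cspg4 -0.18, adjusted p = 0.16), microglia (C1qc -0.22, adjusted p = 0.44), red blood cells (Hbb-bt -0.21, adjusted p = 0.83), ependymal cells (Ccdc153 -0.49, adjusted p = 0.30), choroid plexus (Aqp1 -0.65, adjusted p = 0.77), meningeal fibroblasts (Igf2 -0.40, adjusted p = 0.54) and pituitary cells (Lhb -0.86, adjusted p = 0.42). All tested markers had values below 0 in choroid plexus (12, median -0.46), ependymal cells (8, median -0.24), red blood cells (5, median -0.14) and pituitary cells (2, median -0.44). Below 0 were also 5 of 8 markers of oligodendrocyte precursors, 8 of 13 of microglia and 2 of 10 of meningeal fibroblasts. The choroid plexus sum varied widely within each genotype, between 40.8 and 2025 CPM in control mice and between 39.7 and 2259 CPM in dnFGFR mice.

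**Figure D4:**
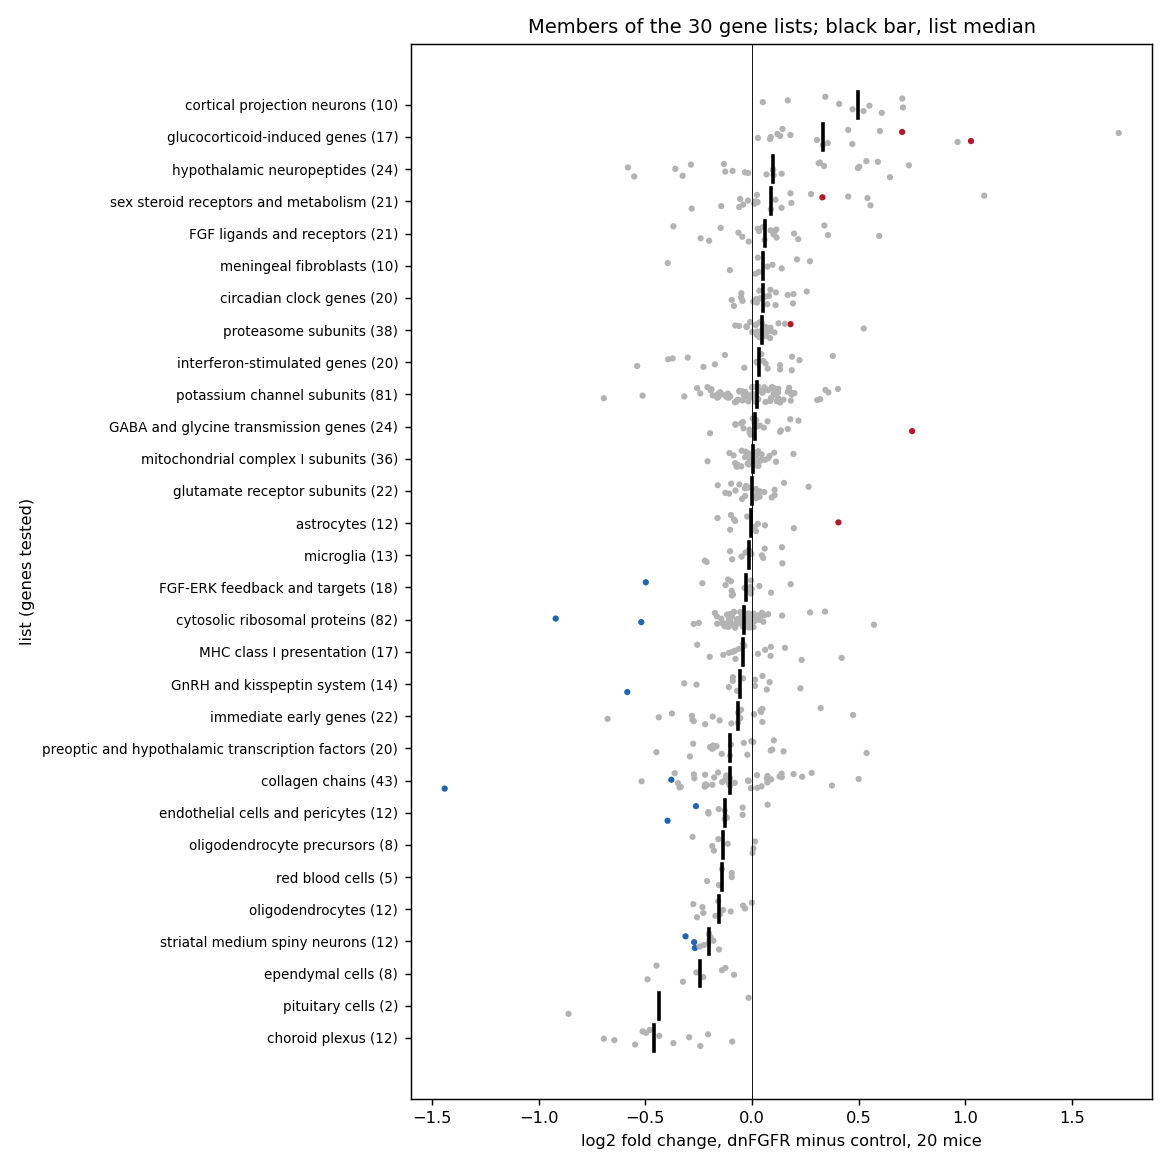
Each point is the log2 fold change (x axis, dnFGFR minus control, 20 mice) of a tested member of 1 of 30 gene lists (y axis, number of tested genes in brackets), with called members in red (higher) or blue (lower) and a black bar at the list's median. All tested markers of striatal medium spiny neurons, choroid plexus, ependymal cells, red blood cells and pituitary cells lie below 0. Those of cortical projection neurons and the glucocorticoid-induced genes all lie above 0, and Ccnd1 is the only called gene in its list.

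The 2 housings were then fitted alone, so that genes called in one could be examined in mice that had no part in the call. In SS-housed mice 34 of 16992 genes were called (0.2%), 12 higher and 22 lower, and leaving out 1 mouse moved the count between 21 (without dnFGFR SS replicate 1) and 70 (without dnFGFR SS replicate 5). All 34 had the same direction in OS-housed mice, 30 of them with an unadjusted p under 0.05, against 7.02% of all genes tested there in either direction. Without dnFGFR OS replicate 5 the number was 32. The median absolute log2 fold change of the 34 was 0.74 in SS-housed mice and 0.64, in the same direction, in OS-housed mice. The 4 that missed this mark were Hmgn2, Ephb1, Zfp157 and A430033K04Rik, with log2 fold changes in OS-housed mice of -0.45, -0.06, -0.17 and -0.18. In OS-housed mice 9 of 16941 genes were called (0.0531%), and all 9 had the same direction and an unadjusted p under 0.05 in SS-housed mice, where 8.63% of all genes had such a p. Leaving out 1 OS-housed mouse moved the count of 9 between 3 and 16 (without dnFGFR OS replicate 2), and it was 12 without dnFGFR OS replicate 5. The genes called in both were Rspo2, Eps8l1, Oscar, Neb, Tmem203 and Prkag2os1, which are 6 of the 34 and 6 of the 9.

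No gene passed the test of the interaction between housing and genotype by edgeR, with 595 of 17445 genes at an unadjusted p under 0.05 (3.41%) and 1 gene called by DESeq2. Of the 232 genes 7 had such a p (3.02%). All 221 of the 232 that could be fitted in each housing alone had the same direction in both, which the choice of genes over all mice largely fixes. The smallest p-values of the interaction were those of Lpar6, Fgl2 and Ttc34, all at an adjusted p of 0.963. Lpar6 had a log2 fold change of -0.54 in SS-housed and 0.34 in OS-housed mice, Fgl2 one of -0.25 and 0.68, and Ttc34 one of 0.46 and -0.12.

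**Figure D5:**
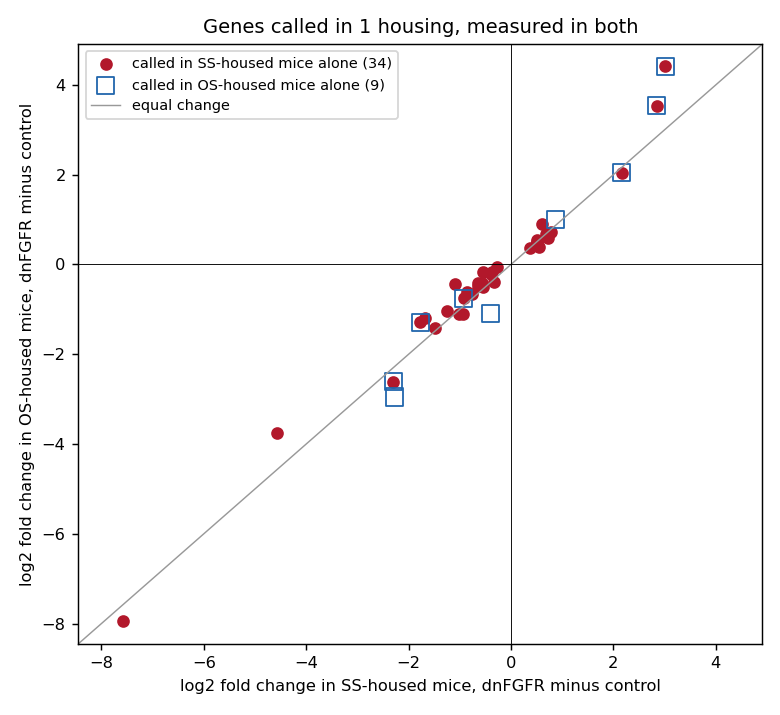
Log2 fold change (dnFGFR minus control) in SS-housed mice on the x axis and in OS-housed mice on the y axis, for the 34 genes called in SS-housed mice alone (filled) and the 9 called in OS-housed mice alone (open squares), with a line of equal change. All points lie to the lower left or upper right of the origin.

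Each mouse was also left out in turn, the genes were called again from the other 19, and the log2 CPM of the left-out mouse was set against the mean of each genotype in its own housing. All 20 mice lay nearer their own genotype for a larger share of the called genes than of all genes tested. The share ran from 54.2% in dnFGFR SS replicate 5 (49.1% of all genes tested) to 88.4% in dnFGFR SS replicate 1 (49.8% of all genes tested). dnFGFR OS replicate 5, the mouse that stood apart, was nearer the dnFGFR mean in 55.4% of 336 genes, against 52.4% of all genes tested. For dnFGFR SS replicate 2 this held in 61.3% of 253 genes, against 48.0% of all genes tested. dnFGFR SS replicate 4, the dnFGFR mouse collected in November, was nearer the dnFGFR mean in 83.7% of 190 genes, against 47.5% of all genes tested. The parts of date and parentage in these shares were not tested. When the comparison was limited to the nearest dates, 3 dnFGFR mice against 5 control mice, 18 of 18101 genes were called (0.0994%), and all 232 genes kept their direction, 133 of them with an unadjusted p under 0.05, against 3.75% of all genes tested. These 8 mice are part of the 20 that chose the genes.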

How the data were processed

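Per the labels and the study's methods, RNA of POA tissue from 20 male mice was made into 1 paired-end library a mouse, reads were aligned with HISAT2 to GRCm38, and the authors counted them per RefSeq gene with Rsubread. The deposited values are raw counts of 25239 genes. Whether counting used strand or multi-mapping reads is not given in the sources used here. The table's other 20 columns match no sample described here and were not used. No library was pooled. One gene is not reported here. Replicates are separate mice.

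Counts were filtered by group with filterByExpr, scaled by TMM and fitted with edgeR 4.0.16 (quasi-likelihood, R 4.3.3) with genotype and housing as terms, and p-values were adjusted by Benjamini-Hochberg over all genes tested. A gene was called at an adjusted p under 0.1. Fits of SS- and OS-housed mice alone, the interaction, DESeq2 1.42.0 and limma 3.58.1 (voom) followed. CPM used TMM-scaled library sizes. The edgeR step was tested on simulated data. Named genes were the 12 of smallest p and the 4 of largest change in each direction, up to 4 called members of each list, the member of smallest p in lists with none, targeted genes, and the 3 of smallest interaction p. Members of called runs and other genes named beside them were chosen after their values were seen. The comparison and its 30 lists were chosen with earlier results of these data known. Intervals cover counting error only.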

Additional observations from a re-analysis of the deposited data

Results flagged for a closer look

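In groups of 5 mice, 12 of 104 groups checked, over 26 named genes, held a mouse set apart from the other 4 by Dixon's criterion. Chance gives this in about 1 of 20 groups of independent normal values. Most of these genes were chosen by smallest p, some are nearly absent, and groups of equal values cannot be flagged. The 2 rates are therefore not comparable. In the chromosome 5 run, Abcb8 was high in control SS replicate 3 (82.9 CPM) and control OS replicate 4 (74.5 CPM), Galnt11 in control SS replicate 3 stood at 41.7 CPM, Gm9057 in control OS replicate 4 at 0.914 CPM, and Asic3 in dnFGFR SS replicate 4 at 0.387 CPM. Ints7 was high in control OS replicate 5 (46.9 CPM). Tmem203 was low in control SS replicate 4 (10.9 CPM). Fut10 stood apart in control SS replicate 1 (12.8 CPM) and dnFGFR SS replicate 2 (5.31 CPM), and Gm9732 in control SS replicate 1 (1.17 CPM). Gm10654 in dnFGFR OS replicate 5 (0.0305 CPM) and Fgl1 in dnFGFR SS replicate 1 (0.0580 CPM) rest on 1 or 2 reads in the whole genotype.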

How the results depend on the processing

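Over both housings the 232 calls became 425 with DESeq2, 388 with limma voom and quality weights, 397 with the GC content and length trend removed and 18 at the nearest sacrifice dates, where fewer mice entered. They stayed between 165 and 341 under the other planned settings. Leaving out 1 mouse gave 176 (without control OS replicate 2) to 336 (without dnFGFR OS replicate 5) calls over both housings, 21 (without dnFGFR SS replicate 1) to 70 (without dnFGFR SS replicate 5) against 34 in SS-housed mice, also 56 without control SS replicate 1 and 51 without dnFGFR SS replicate 4, 3 to 16 against 9 in OS-housed mice, and 0 to 0 for the interaction. In OS-housed mice 3 genes were called without control OS replicate 1, dnFGFR OS replicate 1 or 3, 5 without control OS replicate 2, 4 without control OS replicate 5, and 16 without dnFGFR OS replicate 2. DESeq2 called 223 genes in SS-housed mice, 78 in OS-housed mice and 1 for the interaction, a fit of all 4 groups 45 in OS-housed mice, and an adjusted p under 0.05 left 5 there. Of genes called in SS-housed mice, 32 rather than 30 passed in OS-housed mice without dnFGFR OS replicate 5, and 4.31% rather than 3.44% of chromosome 8 genes were called (both, and the nearest dates without that mouse, added after seeing the data). With replicate number as a block there were 213 calls over both housings, 41 in SS-housed, 3 in OS-housed mice and 0 for the interaction. The numbers did not pair the mice: deviations of same-numbered mice correlated between -0.235 and 0.258 (median -0.0276). Among 41 named called genes none of 1303 values changed direction and 116 lost the call. Fgfr1 (-0.036 to 0.0030 with 1 mouse left out) reversed to 0.013 with limma voom, 0.0087 with GC content and length removed, 0.0085 with the block added, and 0.0018, 0.0025 and 0.0030 without control OS replicate 3, dnFGFR OS replicate 2 or dnFGFR OS replicate 5. At the nearest dates Fgfr2 reversed to 0.062, Fgfr3 to -0.0083 and Hbb-bt to 0.13. The cause of these changes was not tested, and at the nearest dates the number of mice and the dates changed together. Depth limits genes of a few reads, such as Gm9732, to bounds.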

Other observations

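Other called genes, chosen after their values were seen, are given as values of edgeR over all 20 mice, with no test of a group. Besides Rspo2, the related R-spondin Rspo3 was higher in dnFGFR mice (log2 fold change 0.50, adjusted p = 0.0844), and Nkd1, an inhibitor that WNT signalling itself induces, was lower (-0.23, adjusted p = 0.0645). The transcription factor gene Sox10 (-0.31), the connexin gene Gjb1 (-0.35) and the protease gene Adamts4 (-0.45) were lower, while Ptgds, described above, was higher (0.86). The G protein subunit gene Gng7 (-0.24) and the adenylyl cyclase gene Adcy5 (-0.21) were lower.

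Several receptors were called. Higher in dnFGFR mice were the somatostatin receptor Sstr1 (0.33), the relaxin receptor Rxfp1 (0.47) and the parathyroid hormone receptor Pth2r (0.60), and lower were the neurotrophin receptor Ngfr (-0.44) and the serotonin receptor Htr1d (-0.29). The date of sacrifice and the genotype cannot be told apart in any of these.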
